A study of Mus musculus with 64 samples.

Results

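Malat1, Neat1 and Rn45s are 3 of the 24530 gene symbols in a table of read counts from 64 single cells of mouse teeth, 32 from molars and 32 from incisors. The 3 genes were chosen by their share of a cell's counts and its relation to total counts and class, with earlier results of these cells in view, so everything about their levels below is a description and carries no test. The cells came from XLacZ4 mice, a reporter strain that carries lacZ, and no other genotype, treatment or age is given in the labels. All were positive in cell sorting for FDG, a substrate that becomes fluorescent when beta-galactosidase cuts it, an enzyme that macrophages also hold in their lysosomes. The labels name 0 animals, so each tissue is 1 sample and its cells are not replicates of it. The labels give the molecule as polyA RNA and the method as Smart-Seq2, which reads whole transcripts and tags no molecules, so a count is a read and not a molecule.

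Malat1 and Neat1 are long noncoding RNAs that stay in the nucleus. Malat1 collects in nuclear speckles, bodies rich in splicing factors, and Neat1 is the scaffold on which paraspeckles form, bodies that hold back certain RNAs and proteins and that grow under several kinds of cell stress. Rn45s is the 45S precursor of ribosomal RNA, made in the nucleolus by RNA polymerase I and cut into the mature ribosomal RNAs. It carries no polyA tail of the kind messenger RNAs have, and the main Malat1 transcript and the long form of Neat1 end in a protected RNA triple helix in place of such a tail.

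In GENCODE M21 on GRCm38 the lincRNA gene Malat1 (ENSMUSG00000092341.3) spans chr19:5795690-5802672 on the minus strand, and its longest transcript, Malat1-201, has 1 exon of 6983 bases. The lincRNA gene Neat1 (ENSMUSG00000092274.3) lies next to it on the same strand at chr19:5824708-5845478, 22035 bases away. Its long transcript Neat1-201 has 1 exon of 20771 bases, and the short Neat1-202 has 2 exons and 3004 bases. Stretches at or near the RNA ends are shown because the libraries are labelled polyA. The Malat1 stretch, which stops short of the annotated end, is at chr19:5795948-5796079, and the capitals mark the longest run of A in the transcript, 12 bases long and 298 bases before its annotated end. The stretch of Neat1-201 is its last 120 bases (chr19:5824708-5824827), with the last 10 in capitals. The stretch of Neat1-202 is its last 120 bases (chr19:5842307-5842426), with AATAAA in capitals, 14 bases before the end. All are exonic and written 5′ to 3′ along the transcript, on the minus strand.
Malat1-201: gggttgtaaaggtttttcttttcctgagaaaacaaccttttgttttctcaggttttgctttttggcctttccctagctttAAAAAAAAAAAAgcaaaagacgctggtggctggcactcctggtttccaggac
Neat1-201: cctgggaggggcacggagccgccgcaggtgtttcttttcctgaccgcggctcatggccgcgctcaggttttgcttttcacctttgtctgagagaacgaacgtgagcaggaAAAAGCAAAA
Neat1-202: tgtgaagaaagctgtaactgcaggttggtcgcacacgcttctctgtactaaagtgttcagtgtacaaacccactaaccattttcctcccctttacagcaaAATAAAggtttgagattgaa
The longest run of A has 7 bases in Neat1-201 and 5 in Neat1-202. Malat1-201 also holds AATAAA 16 bases before its annotated end, outside the stretch shown, and the last AATAAA of Neat1-201 is 2071 bases before its end. Runs and motifs were looked for on the transcript strand only. A run of at least 12 A stands in 19.5% of the 2550 GENCODE transcripts of 6000 to 8000 bases, and AATAAA stands in the last 120 bases of 29.8% of 137364 transcripts. A count table by gene does not say which transcript or which end a read came from. For Rn45s it also does not say whether a read came from the precursor or from a mature ribosomal RNA cut from it. The reference tables used here hold no entry for Rn45s, so no sequence or position is given for it, and how reads that match several rDNA copies were counted is not given in the sources used here.

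Every cell is labelled a pericyte, the contractile support cell on the wall of small vessels, and the classes used here come from 2 genes. A cell was put in the mural-like class (pericytes and vascular smooth muscle cells) with at least 500 CPM of Rgs5 and 0 reads of Csf1r, and in the macrophage class with at least 1 read of Csf1r and under 500 CPM of Rgs5, where CPM is counts per 1000000 counts of the cell. Rgs5 codes for a regulator of G-protein signalling in mural cells, and Csf1r for the receptor of the macrophage growth factor CSF1. There were 47 macrophage cells (22 molar, 25 incisor) and 15 mural-like cells (9 molar, 6 incisor), and 2 cells fell in neither class. With these 2 rule genes left out of the marker lists, a macrophage marker was read in 95.4% of macrophage cells on average over 13 markers, and a pericyte marker in 62.6% of mural-like cells on average over 13. In macrophage cells 7 of the 13 pericyte markers were at 0, among them Pdgfrb, Cspg4 and Kcnj8, and in mural-like cells 11 of the 13 macrophage markers were at 0. The macrophage class thus goes against the label on its cells.

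Total counts per cell ran from 514492 to 3171734. They differed between the classes, with a median of 1428705 in macrophage cells and 2767909 in mural-like cells, and 10 of 47 macrophage cells and 13 of 15 mural-like cells had at least 2000000. No 2 cells had identical counts. Incisor cell 2 stood apart: it is the mural-like cell nearest the threshold (Rgs5 at 570 CPM), had 922 genes with a read, and held 0.162% of its counts in 13 housekeeping genes, against a mural-like median of 5.54%. It had reads of 5 of 14 pericyte markers and of 0 of 14 macrophage markers. Results that rest on it are given with and without it where both were computed. On the other side of the threshold, incisor cell 25 had 167 CPM of Rgs5 and 8357 reads of Csf1r and is a macrophage cell.

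Together the 3 genes took 5234018 of 116987360 counts, or 4.47%. Malat1 had more reads than any other gene, 3081706 (2.63% of all counts), and Rn45s had 2053100 (1.75%) and rank 5. Neat1 had 99212 reads (0.0848%) and rank 107. Malat1 was the gene with most reads in 21 cells and Rn45s in 9. In a cell the 3 genes together took from 0.603% to 27.1% of the counts, with a median of 5.15%.

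Malat1 was read in all 64 cells. Its share of a cell's counts was 0.176% in incisor cell 10, the lowest, 2.73% at the median and 17.4% in molar cell 6, the highest, a 99.0-fold span. Molar cell 6 had the lowest total of all cells (514492) and 1118 genes with a read. It had reads of 9 of 14 macrophage markers, with C1qb, C1qc, Cd68, Cd14 and Fcgr3 at 0, and 1889 CPM of Bglap, a gene of the odontoblast list. At least 5% of the counts were Malat1 in 12 cells, 11 of them macrophage cells. The 95% exact interval of a cell's share reached at most 0.104 percentage points to a side, which covers counting error only, since several PCR reads can stem from 1 molecule. The span between cells is thus far wider than what counting reads adds.

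Rn45s was also read in all 64 cells. Its share was 0.295% in incisor cell 25, 1.43% at the median and 12.8% in incisor cell 30, a 43.3-fold span. The 8 cells with at least 5% Rn45s were 6 macrophage cells, incisor cell 2 and molar cell 10, which is in neither class and held 39.4% of its counts in Amelx, the gene of the enamel protein amelogenin.

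Neat1 was read in 47 of 64 cells. Its share reached at least 0.1% in 25 cells, of which 24 were macrophage cells, and its highest value was 1.08% in incisor cell 30, the cell that also led in Rn45s. The 17 cells without a read were 6 macrophage cells, 10 mural-like cells and 1 in neither class. A count of 0 there allows a share of up to 0.0000966% to 0.000583%, depending on the cell's total.

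The 2 cells in neither class held these RNAs within the range of the macrophage cells, Neat1 in molar cell 10 included. Molar cell 10 had 0 reads of Rgs5 and of Csf1r, and held 2.83% Malat1, 6.27% Rn45s and 0 reads of Neat1. Incisor cell 13 had 2301 CPM of Rgs5 together with 839 reads of Csf1r, and held 2.41% Malat1, 3.09% Rn45s and 0.187% Neat1.

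Reads of the 2 nuclear RNAs can be set beside each other only per length. Summed over macrophage cells, Malat1 stood at 4536 CPM per kb of Malat1-201, and Neat1 at 60.4 CPM per kb if all its reads came from the long Neat1-201 and at 417 if all came from Neat1-202. Malat1 was thus 75.1-fold or 10.9-fold above Neat1 in reads per length in macrophage cells, and 669-fold or 96.8-fold in mural-like cells. The mural-like folds rest on few cells. Incisor cell 2 held 30.3% of the mural-like Malat1 reads, and molar cell 1 held 64.8% of the mural-like Neat1 reads. The folds were not computed without these cells. How well the libraries capture each RNA form was not tested, so the folds compare reads and not RNA amounts.

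**Figure D1:**
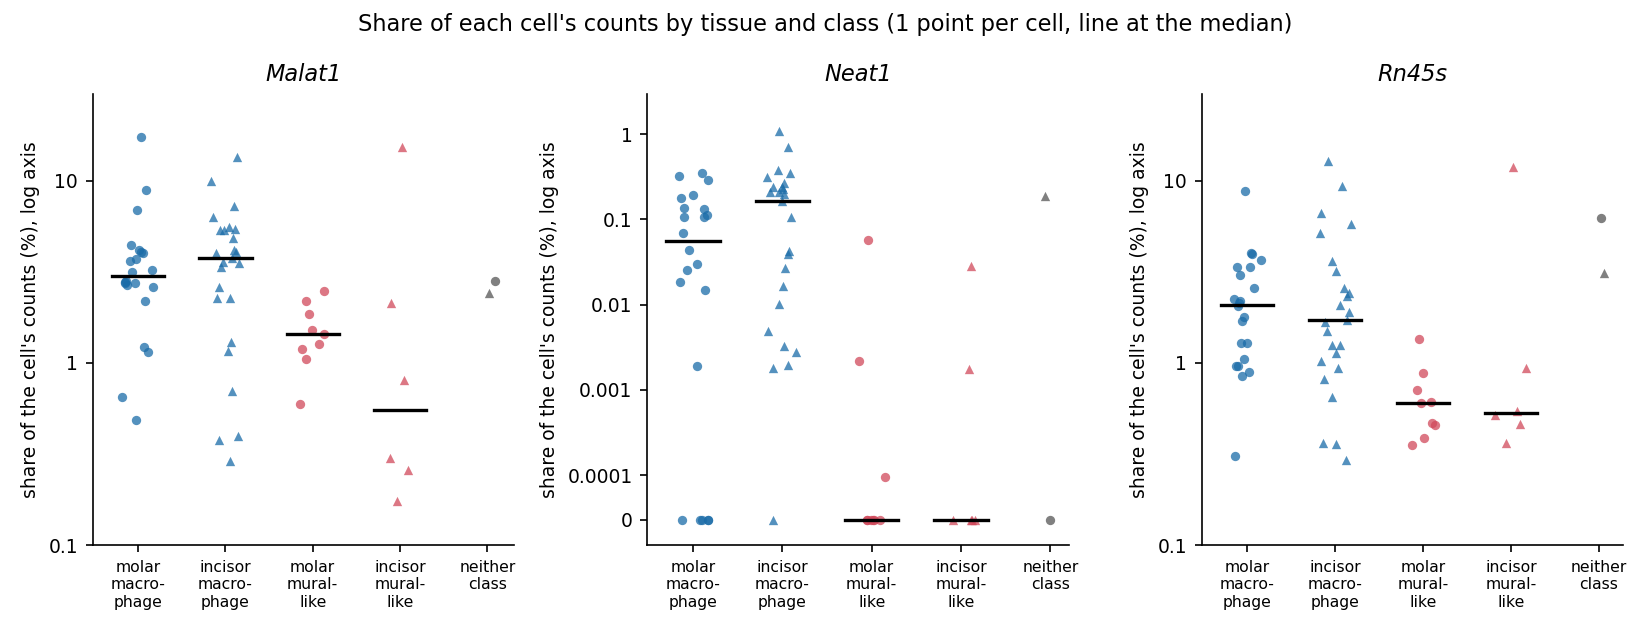
Share of each cell's counts (%, log axis) for Malat1, Neat1 and Rn45s, 1 point per cell, by tissue and class, with a line at the median of each group. Cells with 0 Neat1 reads are drawn at the tick marked 0; Malat1 medians are 2.98%, 3.78%, 1.45% and 0.553% from left to right, and incisor cell 2 is the highest mural-like point for Malat1 and Rn45s.

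The classes were set side by side to see whether these RNAs differ between macrophage and mural-like cells. Malat1 made up 0.291% to 17.4% of the counts of macrophage cells, with a median of 3.52%. In mural-like cells it made up 0.176% to 15.3%, with a median of 1.27%, and without incisor cell 2 the highest value was 2.49%. The macrophage median was 2.78-fold higher (log2 1.47). The classes overlapped: 34 of 47 macrophage cells lay above the 14 mural-like cells other than incisor cell 2, and 9 lay below the median of those 14. Of those 9, 7 had at least 2000000 counts.

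Among cells of at least 2000000 counts the order of the Malat1 medians turned. There the 10 macrophage cells had a median of 0.905% and the 13 mural-like cells 1.19% (log2 -0.40), and 2 of these macrophage cells lay above the highest of these mural-like cells, molar cell 31 at 2.17%. Depth and class move together in these cells, and the part of depth in the difference over all cells was not tested further.

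Rn45s made up 0.295% to 12.8% of macrophage counts, with a median of 1.89%. In mural-like cells it made up 0.353% to 11.9%, with a median of 0.548%, and 0.353% to 1.35% without incisor cell 2. The macrophage median was 3.45-fold higher (log2 1.79), and 29 of 47 macrophage cells lay above the 14 other mural-like cells. The summed shares gave log2 1.08 with incisor cell 2, which held 39.6% of the mural-like Rn45s reads, and 1.76 without it. Among cells of at least 2000000 counts the medians were 0.749% and 0.516% (log2 0.54), in the same order but closer.

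Neat1 was read in 41 of 47 macrophage cells (87.2%, exact Clopper-Pearson interval 74.3% to 95.2%) and in 5 of 15 mural-like cells (33.3%, 11.8% to 61.6%). With each cell thinned to 510000 reads the counts were 41 and 4, so the order was the same at equal depth. The macrophage median was 0.107% of counts and the mural-like median 0, so no fold of medians is given. As a share of summed counts Neat1 was 17.4-fold higher in macrophage cells (0.125% against 0.00712%). Of the 2757 mural-like reads, 64.8% came from molar cell 1. The highest mural-like share, 0.0572% in that cell, was passed by 25 macrophage cells, of which 1 had at least 2000000 counts. At that depth the fold of the sums was 3.25, and it rested on few cells: 68.1% of the 6367 macrophage reads there came from molar cell 28. Without that cell the fold was 1.14, and without molar cell 1 it was 8.24. Over all totals, leaving out molar cell 1 gave 44.4-fold in place of 17.4-fold.

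A 2-fold difference between the classes was common. Of 1393 genes compared by their medians, 36.7% were at least 2-fold higher in macrophage cells and 49.7% in mural-like cells, and of 1924 genes in cells of at least 2000000 counts the shares were 47.9% and 33.8%. A difference of the size seen for Malat1 or Rn45s is therefore near the background of these classes. For Neat1, compared by summed share and by cells with a read, no such background was computed.

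The study's design sets molars against incisors. Malat1 took 2.48% of all molar counts and 2.81% of all incisor counts (log2 molar over incisor -0.18). The cell medians were 2.70% and 3.43%, and the cells of each tissue spread over 0.484% to 17.4% and 0.176% to 15.3%, so the tissues overlapped almost in full. Within macrophage cells the sums gave log2 -0.02. Within mural-like cells the 9 molar cells ran from 0.596% to 2.49% with a median of 1.45%. The 6 incisor mural-like cells held 0.176%, 0.259%, 0.2996%, 0.807%, 2.13% and 15.3%. Of these, 3 lay below every molar cell and incisor cell 2 above them all. The sign of the mural-like difference therefore turned with the way of averaging: the summed shares gave log2 -0.35, and the medians gave 1.39. Without incisor cell 2, the sums gave 1.17, the medians 2.27 and the means 1.04.

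Rn45s took 1.63% of molar and 1.89% of incisor counts (log2 -0.21). In macrophage cells the medians were 2.09% and 1.72%, and the sums gave log2 0.04. In mural-like cells the medians were 0.602% and 0.532%, and the summed difference was log2 -1.30 with incisor cell 2 and 0.09 without it.

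Over all cells and in macrophage cells Neat1 had the largest log2 difference between tissues of the 3 genes. It was read in 20 of 32 molar and 27 of 32 incisor cells, and took 0.0569% of molar and 0.115% of incisor counts, 2.03-fold more in incisors (log2 -1.02). Of 8219 genes compared in this way, 21.7% were at least 2-fold higher in molars and 26% in incisors, so a difference of this size is not rare between these 2 samples. In macrophage cells Neat1 was read in 17 of 22 molar and 24 of 25 incisor cells, with medians of 0.0562% and 0.165%, and the summed difference was log2 -0.73. For 7212 genes in macrophage cells, 24.4% were at least 2-fold higher in molars and 29.6% in incisors. Leaving out incisor cell 11, which held 13106 Neat1 reads, brought the difference over all cells to log2 -0.74. In mural-like cells the sums went the other way (log2 0.37), on reads in 3 molar and 2 incisor cells, where 30.4% of 7255 genes were at least 2-fold higher in molars and 36.8% in incisors.

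**Figure D2:**
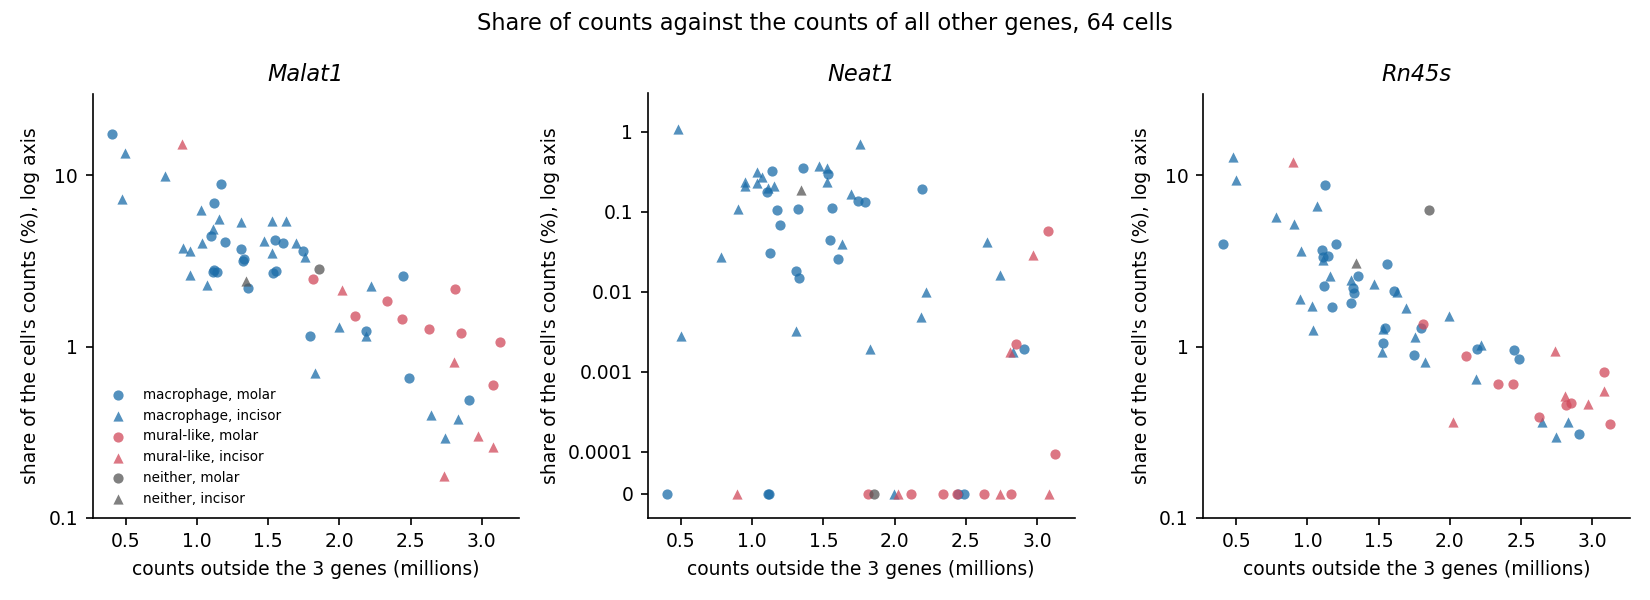
Share of each cell's counts (%, log axis) against the cell's counts outside the 3 genes (linear axis), for 64 cells coloured by class with circles for molar and triangles for incisor cells. Malat1 and Rn45s are lower where the other counts are higher (rank correlation -0.83 and -0.87 over all cells), and Neat1 reads at 0 are drawn at the tick marked 0.

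Malat1 and Rn45s were low in cells with many counts. Over the 47 macrophage cells the Spearman correlation between Malat1's share and the counts outside the 3 genes was -0.70, and it was -0.66 in molar and -0.74 in incisor macrophage cells. For Rn45s it was -0.83, with -0.84 in molar and -0.86 in incisor cells. The points share 1 library per cell, and a gene's share has the other counts in its denominator, so that some inverse relation is built in. The read numbers themselves, which have no such denominator, still gave -0.38 for Malat1 and -0.56 for Rn45s.

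The macrophage cells below and above 2000000 counts show the size. In the 37 cells below, Malat1 had a median of 3.998% of counts from 53382 reads, and in the 10 cells above, 0.905% from 21121.5 reads. Rn45s had 2.25% from 32615 reads and 0.749% from 17944 reads. Cells with more reads in all thus had fewer reads of both RNAs. From the 10th to the 90th percentile of macrophage cells, Malat1 reads spanned 5.75-fold and Rn45s reads 3.69-fold, while the counts of all other genes spanned 2.65-fold.

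Few genes behaved this way. Of 1557 genes read in at least 50% of macrophage cells, 0.45% had a rank correlation of -0.5 or lower with the counts outside the 3 genes and 1.93% had 0.5 or higher, with a median of 0.09. On CPM over the counts outside the 3 genes, Rn45s was the lowest of all (-0.84) and Malat1 the third lowest (-0.70). This ranking used the measure for which the genes were chosen and is a description of them.

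Within the mural-like class Malat1 showed the same direction, with a rank correlation of -0.75 over 15 cells and -0.69 without incisor cell 2. Rn45s gave -0.48, and -0.36 without that cell. Neat1 gave 0.63, on 5 cells with reads.

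Neat1 followed the counts less closely. In macrophage cells its correlation with the counts outside the 3 genes was -0.29, made of 0.048 in molar and -0.41 in incisor cells. It was read in 34 of 37 macrophage cells below 2000000 counts, with a median share of 0.134%, and in 7 of 10 above, with a median of 0.0034%. Within these depth ranges the correlation was 0.049 and 0.055, so the relation over all macrophage cells lay between the ranges and not inside them. Malat1 and Rn45s differ from it there, with -0.41 and -0.70 below 2000000 counts and -0.71 and -0.83 above.

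The number of genes a cell shows was compared after thinning the reads outside the 3 genes to 400000 in each cell, which kept all 64. Macrophage cells had 1113 to 3764 other genes with a read (median 2323) and mural-like cells 831 to 3567 (median 2278). The rank correlation with this number in macrophage cells was -0.30 for Malat1, -0.31 for Rn45s and 0.050 for Neat1. No gene of the 1557 reached -0.5 (0%) and 1.28% reached 0.5, with a median of 0.14. On CPM over the counts outside the 3 genes, Rn45s had rank 6 and Malat1 rank 8 from the lowest, which is a description of them. With the counts outside the 3 genes held fixed, the correlations became -0.052 for Malat1, 0.013 for Rn45s and 0.18 for Neat1, and the first 2 were near 0. Within the 37 cells below 2000000 counts the plain correlations were -0.19, -0.23 and 0.18, and in the 10 above -0.26, -0.055 and 0.13.

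In mural-like cells Malat1's correlation with genes detected was -0.80, and -0.76 without incisor cell 2. Total counts and thinned genes went together more closely there (0.88) than in macrophage cells (0.38). The 3 lowest Malat1 shares of the class, in incisor cells 10, 32 and 28, were 0.176%, 0.259% and 0.2996%. Neat1 gave 0.54 and Rn45s -0.41, which was -0.27 without incisor cell 2. With the counts outside the 3 genes held fixed the mural-like values were -0.46 for Malat1, -0.033 for Neat1 and 0.0031 for Rn45s.

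**Figure D3:**
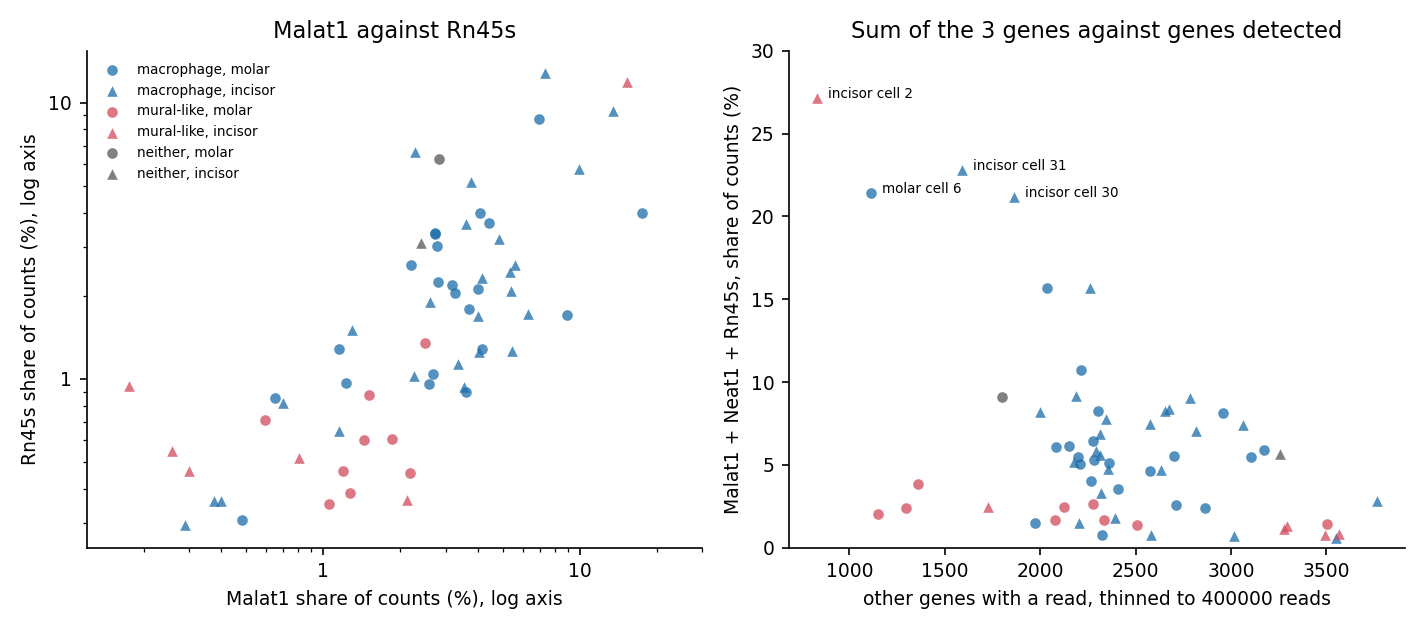
Left, Malat1 against Rn45s as a share of each cell's counts (%, both axes log); right, the summed share of the 3 genes (%) against the number of other genes with a read after thinning to 400000 reads. Points are 64 cells, coloured by class and shaped by tissue; incisor cell 2 stands highest on the right at 27.1% with 831 genes, followed by incisor cell 31, molar cell 6 and incisor cell 30.

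The 3 members were compared with each other on CPM over the counts outside the 3 genes, so that their shares did not compete. Malat1 and Rn45s went together in macrophage cells, with a rank correlation of 0.66 (0.60 in 22 molar and 0.73 in 25 incisor cells). With the counts outside the 3 genes held fixed it was 0.18, and in the 37 cells below 2000000 counts 0.37. In the 10 macrophage cells above that depth it was 0.90. Mural-like cells gave 0.19, and 0.0022 without incisor cell 2.

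Single cells show where the 2 RNAs parted. Molar cell 6 had 17.4% Malat1 and 3.99% Rn45s, incisor cell 30 had 7.29% and 12.8%, and molar cell 24 had 8.90% and 1.71%. Incisor cell 31 was high in both, at 13.5% and 9.32%. Molar cell 6 had 0 reads of Neat1, incisor cell 31 had 18 and incisor cell 30 had 6537, so Neat1 differed widely among these 3 cells of low total counts.

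Neat1 went with neither of the others closely. In macrophage cells its rank correlation with Malat1, its neighbour on the chromosome, was 0.25, made of -0.063 in molar and 0.36 in incisor cells, and 0.064 with the other counts held fixed. With Rn45s it was 0.20 and -0.098. The 6 macrophage cells without Neat1 reads had a median Malat1 share of 2.66%, and the 41 with at least 5 reads had 3.62%. Tissue differed between these sets too: 5 of the 6 were molar, and the 41 were 17 molar and 24 incisor cells. The Malat1 medians of all molar and incisor macrophage cells were 2.98% and 3.78%. In mural-like cells the correlation of Neat1 with Malat1 was -0.50, on 5 cells with reads, and -0.056 with the other counts held fixed.

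Genes whose level across the 47 macrophage cells was most like each member were named by rank correlation among 1554 other genes, and predicted genes were ranked but not named. The closest named gene to Malat1 was Rn45s. It was followed by Mrgpra6 (0.62), Abcd2 (0.56), Erdr1 (0.50), Gje1 (0.49), Plau (0.44), Kdm6b (0.42) and Rpl11 (0.41). Several are barely read: Mrgpra6, Abcd2 and Gje1 had medians of 1.97, 1.05 and 1.31 CPM in cells below 2000000 counts. Plau, the gene of urokinase, a protease that activates plasminogen, had a median of 167 CPM below that depth and 0 above. Erdr1 had 1909 and 477 CPM.

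At the other end of Malat1's order stood Lyz2 (-0.68), Gpx1 (-0.64), Cfl1 (-0.63) and Lgmn (-0.63). Lyz2 codes for lysozyme, Gpx1 for a glutathione peroxidase, Cfl1 for cofilin, which cuts actin filaments, and Lgmn for legumain, a lysosomal protease. In macrophage cells below and above 2000000 counts, the Lyz2 medians were 535 and 3474 CPM, Gpx1 112 and 862, Cfl1 741 and 2111, and Lgmn 1499 and 4511. With the counts outside the 3 genes held fixed the correlations were -0.47 for Lyz2 and -0.39 for Cfl1.

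Rn45s went with Malat1, Lars2 (0.60), Mrgpra6 (0.59), Ccl2 (0.57), Ap1b1 (0.56), Kdm6b (0.56), Gje1 (0.54) and Prex2 (0.53). Lars2 codes for the mitochondrial leucyl-tRNA synthetase and stands in the list of rows grouped here with ribosomal RNA, so whether its reads are apart from those of Rn45s was not tested. Ccl2 codes for a chemokine that draws monocytes and Kdm6b for a histone demethylase. Lars2 had medians of 240 CPM below 2000000 counts and 49.0 above, and Ccl2 1104 and 0. The lowest values belonged to Efhd2 (-0.76), Lyz2 (-0.73), Ctsb (-0.69) and Lgmn (-0.67). Ctsb codes for cathepsin B, a lysosomal protease, and its medians were 3488 and 9249 CPM. Lyz2 and Lgmn were thus among the 4 lowest for both Malat1 and Rn45s.

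Neat1 had other neighbours. They were Atf4 (0.54), Rufy3 (0.52), Luc7l2 (0.52), Adgre5 (0.46), Rps25 (0.43), Rpl14 (0.42), Ncf1 (0.41) and Ptms (0.41). Atf4 codes for the transcription factor of the integrated stress response, and Luc7l2 for a splicing factor. With the other counts held fixed Atf4 stood at 0.58, the highest of all genes, and by tissue at 0.45 in molar and 0.55 in incisor cells. The lowest were Ctsc (-0.56), Unc93b1 (-0.54), Ms4a6c (-0.50) and Arpc1b (-0.44). Ctsc codes for cathepsin C and Unc93b1 for the carrier of endosomal Toll-like receptors. Ctsc had medians of 270 CPM below 2000000 counts and 2679 above.

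Over the 1554 genes, a correlation of at least 0.3 was reached by 30 for Malat1, 65 for Neat1 and 62 for Rn45s, and one of -0.3 or lower by 198, 27 and 214. Malat1 and Rn45s thus had far more genes against them than with them, and Neat1 the reverse. The medians of all genes were -0.09, 0.02 and -0.08, against which the lists below are read.

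Gene by gene, the partners of these RNAs in nuclear bodies had median correlations near 0 in macrophage cells. The medians of all genes were -0.09 with Malat1, 0.02 with Neat1 and -0.08 with Rn45s. Of 18 paraspeckle protein genes 8 passed the filter of reads in at least 50% of the cells. Their medians were 0.07 with Malat1, 0.06 with Neat1 and 0.04 with Rn45s. Smarca4, a chromatin remodeller found in paraspeckles, was the only one to reach 0.3, with Neat1 (0.32). Sfpq, a core paraspeckle protein that binds Neat1, gave -0.18 with it and Hnrnpm 0.25. Of 21 genes of nuclear speckle and splicing factors 15 passed, with medians of 0.07, -0.04 and 0.06. Son, a scaffold of nuclear speckles, gave 0.27 with Malat1 and 0.39 with Rn45s, and Srsf7 gave -0.30 with both Malat1 and Neat1. Summed over the speckle list, their share of counts gave 0.50 with Malat1's share and 0.55 with that of Rn45s. In the 37 macrophage cells below 2000000 counts these were 0.29 and 0.41, and in the 10 above 0.43 and 0.38. Malat1 and Rn45s still followed the counts inside each range, and the sum was not tested with those counts held fixed. For the single genes of the list, holding them fixed gave medians of 0.009 with Malat1 and 0.087 with Rn45s. Those of all genes were -0.032 and 0.0007. With Neat1 the sum gave -0.11 over all macrophage cells, -0.44 below and -0.25 above. The sum's median was 0.697% of counts below 2000000 and 0.388% above. Sums of other lists also went with Malat1 and Rn45s in part. Cytosolic ribosomal proteins gave 0.75 and 0.92 with them above that depth, but -0.45 and -0.0057 below. The other nuclear long noncoding RNAs gave 0.46 and 0.38 above, and 0.057 and 0.44 below.

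Genes that make or process ribosomal RNA were mostly too sparse to follow. Of 28, 4 passed the filter. Ncl, which codes for nucleolin, gave 0.39 with Malat1 and 0.29 with Rn45s, and Npm1, which codes for nucleophosmin, gave 0.12 and 0.24. Polr1d, a subunit shared by polymerases I and III, gave -0.33 with Malat1 and -0.26 with Rn45s. Of 71 cytosolic ribosomal protein genes 67 passed. At least 0.3 was reached by 14 of them with Rn45s, 10 with Neat1 and 3 with Malat1, where 3.99%, 4.18% and 1.93% of all genes did. A value of -0.3 or lower was held by 1, 0 and 5, where 13.8%, 1.74% and 12.7% of all genes did. The medians were 0.07, 0.14 and 0.02, above those of all genes at -0.08, 0.02 and -0.09. These genes also had a median of -0.07 with total counts, against 0.09 for all genes. With those counts held fixed, their medians were 0.073 with Rn45s, 0.135 with Neat1 and -0.048 with Malat1. Those of all genes were 0.0007, 0.056 and -0.032, so with Malat1 the list then lay below all genes.

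Few of the other RNAs linked to the members were read in most cells. Mir6236, a second row grouped here with ribosomal RNA, was read in 61 cells, at 16.5 CPM of summed macrophage counts, and gave 0.24 with Rn45s. Lars2 and Mir6236 together took 0.451% of the counts of incisor cell 2, against at most 0.0749% in any macrophage cell. Of 10 other nuclear long noncoding RNAs in the file, 1 passed the filter: Tug1, read in 34 cells, gave 0.14 with Malat1, -0.08 with Neat1 and 0.17 with Rn45s. Xist, which coats the inactive X chromosome, was read in 25 cells and Kcnq1ot1, an antisense RNA of an imprinted locus, in 19, of which 16 were macrophage cells for each. Firre was read in 5 macrophage and 1 mural-like cells. The imprinted RNAs Meg3, Rian and Airn had reads in 8, 6 and 2 mural-like cells and in 0 macrophage cells. Miat and Mir17hg were each read in 2 cells and Mirg in 0. None of these 10 nuclear RNAs was read in every cell, as Malat1, Rn45s and Lars2 were.

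Of 50 nuclear-coded genes of oxidative phosphorylation, the mitochondrial chain that makes ATP, 34 passed. With Malat1 12 of them had -0.3 or lower and 0 had at least 0.3, with a median of -0.22, where 12.7% of all genes had -0.3 or lower. With Rn45s 7 had -0.3 or lower (median -0.15), where 13.8% of all genes did, and with Neat1 2 (median -0.05). As a sum the list gave -0.42 with Malat1 over all macrophage cells, -0.39 below 2000000 counts and -0.018 in the 10 cells above. Ndufa4, a subunit of the respiratory chain, gave -0.53 with Malat1, and Cox5a, a subunit of cytochrome c oxidase, -0.40 with Malat1 and -0.43 with Rn45s. These genes also had a median of 0.17 with total counts, against 0.09 for all genes. With those counts held fixed, the list's medians were -0.15 with Malat1 and 0.02 with Rn45s, where those of all genes were -0.03 and 0.0007. The file holds 0 genes of the mitochondrial genome, so no mitochondrial share could be set beside the members.

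Of 19 immediate early and stress genes 16 passed. The medians were 0.14 with Neat1, -0.02 with Malat1 and -0.04 with Rn45s, and 2 reached 0.3 with Neat1, Ier2 (0.38) and Atf3 (0.32), where 4.18% of all genes did. Fos, the AP-1 factor induced by many stimuli, gave 0.18 and its partner Jun 0.03. The 6 heat shock genes that passed, of 13, had medians of -0.16, 0.05 and -0.07 with Malat1, Neat1 and Rn45s, and Hspa8, the constitutive HSP70 chaperone, gave -0.34 with Malat1 and -0.31 with Rn45s. Only 2 of 12 apoptosis and p53 target genes passed, so that list cannot be described.

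Housekeeping genes differed among themselves. Of the 13, 5 had -0.3 or lower with Malat1 and 5 with Rn45s, where 12.7% and 13.8% of all genes did. The list's medians were -0.18 and -0.27. Ubb, a ubiquitin gene, gave -0.54 and -0.65, and Ftl1, the ferritin light chain, -0.44 and -0.62. Actb, the gene of beta-actin, gave 0.05 with Malat1, 0.35 with Neat1 and 0.47 with Rn45s. As a sum the list took a median of 5.60% of the counts of macrophage cells below 2000000 and 7.88% above. Its genes had a median correlation of 0.30 with total counts, against 0.09 for all genes. With those counts held fixed, the list's medians were 0.06 with Malat1 and -0.01 with Rn45s, where those of all genes were -0.03 and 0.0007.

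**Figure D4:**
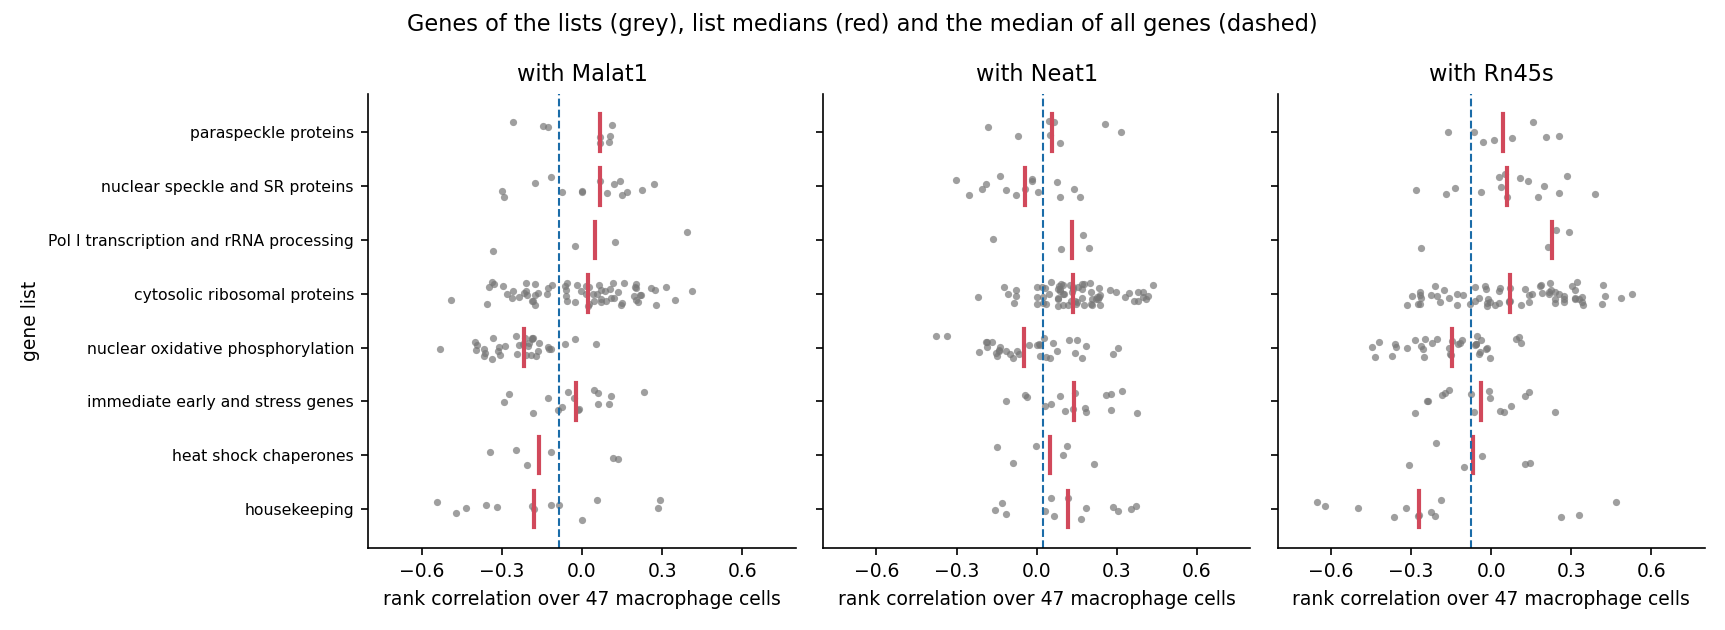
Rank correlation of each listed gene (grey points) with Malat1, Neat1 and Rn45s over 47 macrophage cells, for the 8 lists with at least 4 genes past the filter; red bars are list medians and the dashed line the median of all 1554 genes. Oxidative phosphorylation genes lie to the left with Malat1 (median -0.22), and the medians of paraspeckle and speckle genes lie near 0 with each member.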

How the data were processed

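The authors deposited raw whole-number read counts for each gene symbol in each cell, without scaling. Per the submitters' processing notes, Trim Galore, HISAT2 (2), Seurat (3) and mm10 were used; the tool that counted reads, its annotation and a possible cell filter are not given in the sources. The table has 188 columns, 64 of which carry the name of a labelled cell; 124 columns without a labelled cell were left out. A total of 14282 symbols have a count, and 24 symbols read as dates and were not named.

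From the counts, shares of each cell's total, CPM and Spearman correlations were computed (Python 3.11.15, NumPy 2.4.6, pandas 2.3.3, SciPy 1.17.1, matplotlib 3.10.9). Because the labels name no animals, no test was run and no p-value is given. Correlations are descriptions over cells. Log2 ratios of medians used a pseudocount of 1 CPM. Partial correlations hold the ranks of the counts outside the 3 genes fixed. Intervals are exact at 95%. The limit for a count of 0 is 3 counts. Thinning and correlations were tested on simulated data. The members, the 13 gene lists (294 genes, 16 not in the file) and the 12 marker lists were chosen with earlier results of these data known. Named likeness genes are the 8 of highest and 4 of lowest correlation with each member, among genes read in at least 50% of macrophage cells. Up to 4 genes of each list are named, chosen among those with most counts or, after their values were seen, for their correlation. No doublet caller was run on 64 sorted cells.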

Additional observations from a re-analysis of the deposited data

Results flagged for a closer look

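The molar and incisor mural-like groups, with 9 and 6 cells, were looked at for the 3 members (6 sets) and for total counts and genes detected (4 sets). Of the 6 member sets, 4 had a cell whose gap to its nearest neighbour was large against the range of its group, and none of the other 4 did. Chance alone gives this in about 1 in 20 groups if the values follow a normal distribution. Shares need not follow one, and those of Neat1, with most cells at 0 reads, do not. No conclusion is therefore drawn from that rate. Incisor cell 2 stood out among the 6 incisor mural-like cells both for Malat1, at 15.3% of counts, and for Rn45s, at 11.9%; the next highest were 2.13% and 0.940%. Neat1 stood out at 0.0572% in molar cell 1 among the 9 molar mural-like cells and at 0.0285% in incisor cell 28 among the 6 incisor mural-like cells, where most cells had 0 reads.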

How the results depend on the processing

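With 1 library per cell and no animal named, no replicate error can be given, and tissue and animal cannot be told apart. No paired analysis was possible because no result comes from a test and cell numbers pair nothing. Of 115 alternatives over 15 results, 77 gave the same verdict, 35 moved the value (by over 1.5-fold, or over 0.15 for a correlation) and 3 reversed one of at least 2-fold or 0.3. By these limits, leaving out cells in turn (660 values) moved or reversed 0, though Neat1 with genes detected, near 0, ran from -0.0072 (without molar cell 6) to 0.11. The cause of each change was not tested. The alternatives with cells of at least 2000000 counts, with fixed counts, with raw counts and without named cells were chosen after seeing the data.

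Macrophage over mural-like (log2): Malat1 went from 1.47 to 2.77 in incisor cells alone and reversed to -0.40 in cells of at least 2000000 counts. Rn45s went from 1.79 to 1.08 on summed counts, 1.76 without incisor cell 2, and to 0.54 in those deep cells. Neat1, whose mural-like median is 0, gave values set by the pseudocount: 10.06, and 6.75 with 10 CPM, 4.12 on sums, 9.14 in molar cells, 10.69 in incisor cells and 5.13 in deep cells. Its sums gave 4.07 without incisor cell 2, 5.47 without molar cell 1 and, in deep cells, 1.70, with 0.19 without molar cell 28 and 3.04 without molar cell 1. Molar over incisor in mural-like cells alone was 0.37 for Neat1, reversed from -1.02, and -1.30 for Rn45s, from -0.21. Leaving out 1 cell gave -0.26 to -0.03 for Malat1, -1.21 to -0.74 for Neat1 (highest without incisor cell 11) and -0.36 to -0.03 for Rn45s; both values of -0.03 are without incisor cell 2.

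With genes detected, Malat1 (-0.30) moved to -0.80 in mural-like cells and -0.052 with counts held fixed; Rn45s (-0.31) to -0.48 when detection needed 5 reads and, reversed, 0.013 with counts fixed; Neat1 (0.050) to 0.21 over all 64 cells, 0.54 in mural-like, 0.42 in molar macrophage and -0.27 in incisor macrophage cells. With total counts, raw reads gave -0.38 for Malat1 and -0.56 for Rn45s, mural-like cells -0.48 for Rn45s, and Neat1 (-0.29) gave -0.44 over all cells, 0.63 in mural-like and 0.048 in molar macrophage cells. Malat1 with Neat1 (0.25) gave -0.50 in mural-like, -0.063 in molar macrophage cells and 0.064 with counts fixed. Malat1 with Rn45s (0.66) gave 0.19 and 0.18 in mural-like cells and with counts fixed. Neat1 with Rn45s (0.20) gave -0.28, 0.041 in molar macrophage cells and -0.098.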
